A study of Mus musculus with 3 samples.

Results

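The nuclei described here were chosen by 4 transcripts, as candidates for neurons of the paraventricular hypothalamic nucleus that send an axon to the lumbar spinal cord. A nucleus was taken when it held at least 2 molecules (UMIs, unique molecular identifiers) of Sim1 at 100 CPM (UMIs of a gene in each 1000000 UMIs) or more and Foxp2 at 300 CPM or more, with Hcrt under 1000 CPM and Tox under 300 CPM. Nuclei needed 1000 detected genes or more and no more than 5% of their UMIs from mitochondrial genes, which left 9027, and 90 of them met this rule, or 0.997% (95% exact interval 0.802 to 1.22%, counting error only). There were 31, 24 and 35 of them in replicates 1, 2 and 3, which is 1.16%, 0.867% and 0.978% of each library (mean 1.00% ± 0.147, SD, n = 3). They are called Sim1 and Foxp2 nuclei. The levels of Sim1, Foxp2, Hcrt and Tox set the membership and are given only as description, and Oxt and Penk are also given without a test because they were named with the group from earlier results of these data.

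The study profiled brain nuclei of uninjured C57BL/6 mice by 10x droplet sequencing, in 3 libraries of 1 group labelled as biological replicates. The labelled neurons project to the lumbar cord and took up the label there, and they were cut out of sagittal slices under fluorescence and sorted as nuclei. The sources used here do not give the age and sex of the mice, the tracer or the number of animals behind each library. All p-values below rest only on the spread between these 3 libraries, which may in part be technical and which the test pools over genes.

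The paraventricular nucleus is the hypothalamic output station for hormone release and for autonomic control. Its neuroendocrine neurons release oxytocin, vasopressin and releasing hormones into the blood, while its preautonomic neurons send axons to the brainstem and spinal cord. Sim1 and Otp are transcription factors needed for these neurons to form, and Pou3f2 (Brn2) acts after them in the oxytocin, vasopressin and corticotropin-releasing hormone neurons. Foxp2 is a forkhead repressor found in many brain regions, so it does not mark the paraventricular nucleus by itself.

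The comparisons used 2 references. All other nuclei within the limits numbered 8937. Nuclei with Hcrt at 1000 CPM or more, the orexin precursor of lateral hypothalamic neurons, numbered 140 (61, 61 and 18 by library). Only 79 of them also held a UMI of Rfx4, Ros1 or Lhx9, which are some of the other markers of that class. Pdyn and Nptx2, also listed for that class, were not used for this count. A stricter form of the first reference left out the nuclei with Tox at 300 CPM or more and the Hcrt nuclei, since the rule itself keeps both out of the Sim1 and Foxp2 nuclei. The median nucleus within the limits held 8270, 19493 and 14388 UMIs in replicates 1, 2 and 3, against 5968, 12049 and 8687 UMIs in the Sim1 and Foxp2 nuclei, whose summed UMIs were 189425, 320666 and 333395. The Hcrt nuclei were shallower, with a median of 4680 UMIs. No barcode of a Sim1 and Foxp2 nucleus occurred in another library, and none of the 90 was called a doublet.

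In the 90 nuclei Sim1 had a median of 401 CPM and ran from 107 to 1825 CPM, and Foxp2 had a median of 1572 CPM and ran from 385 to 3193 CPM. The Sim1 condition alone was met by 102 nuclei, of which 8 were left out for Foxp2 alone, 3 for Tox alone and 1 for both. The nearest nucleus outside the Foxp2 limit had 248 CPM, and the nearest outside the Sim1 limit had 99.9 CPM. The Sim1 limit of 2 UMIs left out 31 nuclei with 1 Sim1 UMI that met the other conditions. Otp, which the rule did not use, had a UMI in 6 of those 31 (19.4%), in 32 of the 90 (35.6%, exact interval 25.7 to 46.3%), in 6 of 136 nuclei that met all but the Sim1 condition with no Sim1 UMI (4.41%), and in 21 of the 8770 others (0.239%). The rule therefore has Otp nuclei just outside it, and its count is not the number of such neurons in the libraries.

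Otp, Pou3f2 and Uncx, from the list of paraventricular transcription factors, were higher in every library, and most other factors of the list were not. Otp, the homeobox factor of the neuroendocrine hypothalamus, was at 58.1, 46.8 and 54.0 CPM in the Sim1 and Foxp2 nuclei of replicates 1, 2 and 3, and at 0.404, 0.147 and 0.216 CPM in all other nuclei. Its log2 fold change was 7.49 ± 0.58 (standard error) with an adjusted p of 1.5e-35 (edgeR quasi-likelihood test, Benjamini-Hochberg adjustment over 18000 genes, n = 3 libraries), the largest positive value among the named genes. Pou3f2 was at 47.5, 49.9 and 57.0 CPM against 15.5, 13.9 and 12.3 CPM (log2 fold change 1.60 ± 0.31, adjusted p = 3.7e-06). Uncx, a homeobox factor of several neural regions, was at 31.7, 24.9 and 36.0 CPM against 2.76, 3.20 and 2.40 CPM (3.15 ± 0.53, adjusted p = 5.3e-08). For all 3 factors the lowest library of Sim1 and Foxp2 nuclei lay above the highest reference library. The libraries also did not overlap for the other genes with the largest changes, so this does not set the 3 factors apart. The share of all tested genes without overlap is not reported here.

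A gene is called here at an adjusted p under 0.05 where its log2 fold change is also 1 or more in size. Over all 18000 genes tested, 3.51% were called higher and 6.33% lower (9.84% in all) in the Sim1 and Foxp2 nuclei, and the median log2 fold change was -0.16. Of 10 listed paraventricular transcription factors, 9 were tested, with 3 higher (Otp, Pou3f2 and Uncx) and 2 lower, and a median log2 fold change of 0.97. All 3 higher calls also held against the stricter reference, where Pou3f2 stood at 1.06 ± 0.28 (adjusted p = 0.0039), but Pou3f2 missed the threshold when each nucleus was thinned to 2500 UMIs (adjusted p = 0.18). The lower genes were relatives of Pou3f2. Pou3f3 had 0 UMIs in the 90 nuclei, which puts it at least 4.23-fold lower than in the other nuclei against a floor of 3 UMIs over the group, and Pou3f1 had 3 UMIs (5.66-fold lower, counting interval 1.94 to 27.5), a call that ended against the stricter reference (adjusted p = 0.061). Arnt2, the dimer partner of Sim1, was at 164, 109 and 108 CPM and was not called (log2 fold change -0.25, adjusted p = 0.37).

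**Figure D1:**
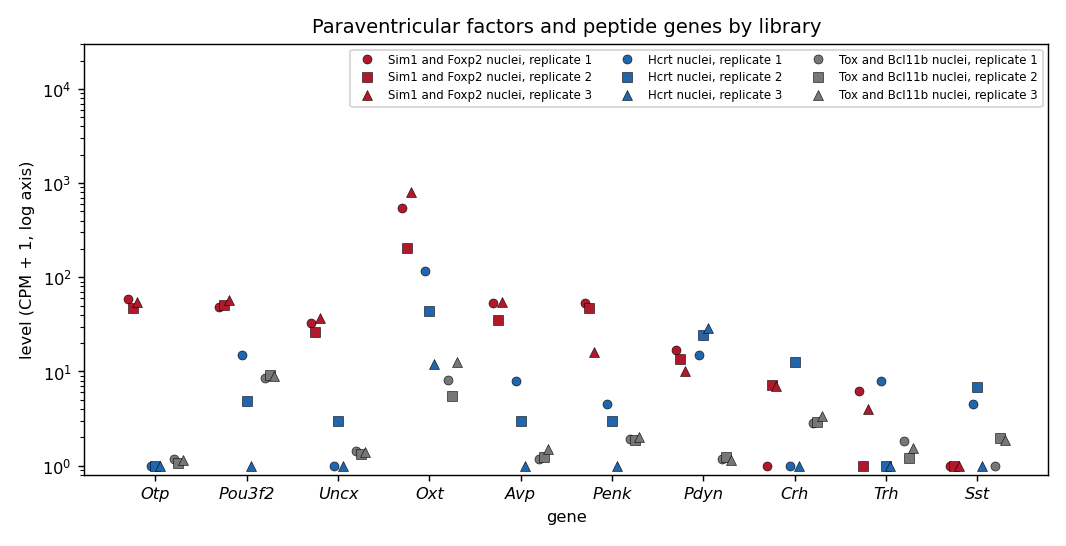
Level of 10 genes (CPM plus 1, log axis) in each library for Sim1 and Foxp2 nuclei (red), Hcrt nuclei (blue) and nuclei with Tox at 300 CPM or more and a Bcl11b UMI (grey); symbols mark replicates 1, 2 and 3 and a point at 1 means no UMI. Otp, Pou3f2, Uncx, Oxt, Avp and Penk are highest in the red points of every library, while Pdyn is at or above the red points in the blue ones of replicates 2 and 3.

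Markers of other classes were low, with exceptions. Of 8 corticospinal markers 7 were called lower, Bcl11b and Slc17a7 also against the stricter reference, and their summed level was 10.6 to 68.6 CPM by library against 490 to 584 CPM in the Tox and Bcl11b nuclei. Slc32a1 had no UMI, the 4 inhibitory markers summed to at most 9.0 CPM and the 8 hindbrain markers to at most 9.36 CPM, and all 5 astrocyte markers were at 0 UMIs. Outside the paraventricular list the markers called higher were Pdyn of the orexin list, Vcan of the oligodendrocyte precursor list, Calb2 and Prkcd of the thalamic list, and Nkx2-2, a homeobox factor shared with Sim1 V3 neurons of the ventral hindbrain and cord. Nkx2-2 was at 26.4, 24.9 and 27.0 CPM against 0.514, 0.544 and 0.350 CPM (log2 fold change 5.49 ± 0.69, adjusted p = 1.1e-13). Of the other V3 markers, Olig3 and Lmx1b had no UMI, while Nkx2-9 was detected. In the Hcrt nuclei Nkx2-2 was the only V3 marker with a UMI, at 14.0 to 27.6 CPM by library, so it was not particular to the Sim1 and Foxp2 nuclei. Calb2, the calcium buffer calretinin, was at 15.8, 24.9 and 42.0 CPM against 3.34, 4.01 and 3.06 CPM (2.73 ± 0.51, adjusted p = 1.8e-06), with Lef1 of the same list at 0 UMIs. Calb2 and Vcan were no longer called without replicate 3 (adjusted p = 0.0804 and 0.539), nor Prkcd without replicate 2 or 3 (0.181 and 0.45). The 5 microglial markers summed to 79.2 to 135 CPM by library against 47.8 to 66.3 CPM in the Tox and Bcl11b nuclei. The sums were 77.0 to 87.8 CPM in all other nuclei and 60.7 to 99.8 CPM in the Hcrt nuclei, which overlap the first range. None of the 5 was called against all other nuclei, and their part in the results was not tested. P2ry12 of that list was called higher than in the Hcrt nuclei, but not with DESeq2 (adjusted p = 0.322).

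Oxt, the precursor of oxytocin, was present in a small fraction of the nuclei at a very high level. The summed level was 544, 203 and 798 CPM in replicates 1, 2 and 3, against 12.6, 5.95 and 15.6 CPM in all other nuclei, so replicate 2 was lowest on both sides. A set of 10 nuclei (3, 2 and 5 by library) held 1522 CPM or more, with a median of 5472 and a highest value of 16771 CPM, and these held 409 of the 434 Oxt UMIs (94.2%). The other 80 had at most 366 CPM, and 64 of them had no Oxt UMI. The gap between 366 and 1522 CPM separates both sets, and no Tox and Bcl11b nucleus reached 1000 CPM. High Oxt was not limited to the Sim1 and Foxp2 nuclei: 5 other nuclei held at least 2 Oxt UMIs at 1000 CPM or more. Of these, 2 had Foxp2 over 1000 CPM with only 1 Sim1 UMI, at 11613 and 7009 CPM of Oxt, and 1 was an Hcrt nucleus with no Sim1 UMI, Foxp2 at 1547 CPM and Oxt at 12378 CPM. An Oxt UMI alone is a poor marker: it was found in 28.9% of the Sim1 and Foxp2 nuclei (median 8270.5 UMIs) and in 16.1% of the deeper Tox and Bcl11b nuclei (median 21139 UMIs), and after thinning every nucleus to 2500 UMIs in 14.4% and 2.40%.

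Avp, the precursor of vasopressin and the close relative of Oxt, was at 52.8, 34.3 and 54.0 CPM in the Sim1 and Foxp2 nuclei and at 1.10, 0.308 and 0.566 CPM in the others (log2 fold change 5.99 ± 0.55, adjusted p = 3.1e-25). It was found more often in the Oxt-high nuclei, with a UMI in 7 of the 10 Oxt-high nuclei and in 9 of the other 80 (0.850% of the Tox and Bcl11b nuclei). Its summed level was 198 CPM (exact Poisson interval 113 to 322) against 30.2 CPM (19.1 to 45.2). Such Poisson intervals cover counting error only and leave out the spread between nuclei and between libraries. In replicate 2 the levels were close, at 49.3 and 33.3 CPM, and the nucleus with the most Avp (10 UMIs, 895 CPM) had Oxt at 358 CPM and was not Oxt-high. In the 10 Oxt-high nuclei Avp remained far below Oxt, which summed to 5064 CPM there, on a scale that is not corrected for gene length. Oxt and Avp are neighbours on mouse chromosome 2. In the GENCODE annotation of GRCm38, Oxt lies on the plus strand from 130576173 to 130577054 and Avp on the minus strand from 130580620 to 130582554, so that they are read toward each other across a gap of 3565 bases.

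The upstream sequences of this gene pair are shown because Oxt, Avp and Esr2, the estrogen receptor beta, had higher summed levels in the nuclei with a UMI of Fign, a gene whose split of the 90 nuclei is described further on. AGGTCA is the core sequence that estrogen receptors and many other nuclear receptors bind, and it was searched on both strands (as AGGTCA or TGACCT) in the 250 bases before each RefSeq start (GRCm38.p6), printed 5′ to 3′ on the strand of the gene with matches in capitals. The Oxt window is chr2:130575919-130576168 on the plus strand and the Avp window is chr2:130582589-130582838 on the minus strand.
Oxt: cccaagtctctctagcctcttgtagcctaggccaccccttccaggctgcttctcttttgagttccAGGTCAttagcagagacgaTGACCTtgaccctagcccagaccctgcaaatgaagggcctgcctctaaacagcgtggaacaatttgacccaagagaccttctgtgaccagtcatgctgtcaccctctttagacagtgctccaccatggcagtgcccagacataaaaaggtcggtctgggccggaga
Avp: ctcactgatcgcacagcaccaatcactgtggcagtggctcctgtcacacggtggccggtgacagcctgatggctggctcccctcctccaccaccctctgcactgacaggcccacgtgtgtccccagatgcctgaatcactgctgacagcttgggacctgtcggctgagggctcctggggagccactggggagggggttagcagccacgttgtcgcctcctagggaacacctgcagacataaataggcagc
The Oxt window holds 2 matches, which begin 185 and 166 bases before the start, and the Avp window holds 0. Of 32851 RefSeq windows of the same length, 14.0% held at least 1 match and 1.36% held 2 or more. A match describes the letters of the window and does not show that a receptor binds there in these nuclei.

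Among the other peptide precursors, Penk and Pdyn, which encode enkephalin and dynorphin opioid peptides, were low but above the other nuclei. Penk was at 52.8, 46.8 and 15.0 CPM against 2.61, 2.13 and 2.18 CPM in all other nuclei, and no nucleus held more than 4 Penk UMIs. It was found in 20 of the 80 nuclei outside the Oxt-high set and in 0 of the 10 inside it, where 0 of 80764 UMIs has an exact Poisson upper limit of 45.7 CPM. That limit lies above the 39.3 CPM of the other 80 nuclei, so a difference in Penk was not detectable at this depth. A Penk-high set of nuclei, with at least 2 UMIs and 300 CPM, had 2 nuclei in replicate 1 and 0 in the others, so Penk-high nuclei could not be compared with the rest. Pdyn was at 15.8, 12.5 and 9.0 CPM against 0.404, 0.397 and 0.266 CPM (log2 fold change 4.75 ± 0.96, adjusted p = 1.5e-05), from 10 UMIs in 6 nuclei, and it missed the threshold without replicate 2 (adjusted p = 0.0641). Of 26 listed precursors 18 were tested, and of the 16 other than Oxt and Penk, 2 were higher (Avp and Pdyn) and 0 lower. The releasing-hormone genes Crh and Trh had 4 and 2 UMIs in all 90 nuclei, and Sst and Vip had 0. Of the listed genes for peptide processing and dense core vesicles, Scg2 was higher at 100, 162 and 153 CPM against 36.2, 37.0 and 39.5 CPM (1.59 ± 0.18, adjusted p = 3.8e-16), Syt4 was higher and Bdnf was lower, and 14 of 17 were not called. Syt4 fell short of the fold threshold without replicate 1 (0.86), against the stricter reference (0.84) and with a minimum of 500 genes (0.92). Bdnf was not called without replicate 2 (adjusted p = 0.278) or with DESeq2 (0.101). In thinned nuclei neither Syt4 nor Bdnf was called (adjusted p = 0.61 and 0.112).

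The 90 nuclei differed among themselves, and the split described here follows Fign, which encodes the microtubule-severing protein fidgetin. It was found by looking at the values, so it is described here with no test. Fign had a UMI in 31 nuclei (10, 8 and 13 by library), of which 30 held 2 or more, and it was absent from 59 nuclei (21, 16 and 22 by library). The median depth was 9537 UMIs in the first set and 7119 UMIs in the second. Fign is not a common transcript here: it was found in 1.51% of the deeper Tox and Bcl11b nuclei and in 3 of 140 Hcrt nuclei. After thinning to 2500 UMIs, 27 of the 31 nuclei still held a Fign UMI.

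All 10 Oxt-high nuclei were among the 31 with Fign, as were 427 of the 434 Oxt UMIs and 37 of the 39 Avp UMIs. Prlr, the prolactin receptor, summed to 180 CPM (exact Poisson interval 135 to 235, counting error only) with Fign and 11 CPM (4.05 to 24.0) without. Esr2 summed to 170 CPM (127 to 224) and 31.2 CPM (18.2 to 50.0). The Esr2 levels were 249, 191 and 118 CPM with Fign and 32.0, 40.7 and 20.2 CPM without in replicates 1, 2 and 3. The converse pattern was seen for Htr2c, a serotonin receptor. Htr2c was at 233, 281 and 258 CPM with Fign and at 2021, 1334 and 1744 CPM without, and in thinned nuclei it was found in 6 of 31 and 43 of 59. Erbb4, a neuregulin receptor, was at 249, 472 and 597 CPM against 2333, 1651 and 1416 CPM, and Kctd8, an auxiliary subunit of GABA-B receptors, at 15.6, 151 and 199 CPM against 272, 552 and 678 CPM. In the 10 Oxt-high nuclei Kctd8 had 0 UMIs, against 333 UMIs in the other 80. Adarb2, Reln, Sim1 and Foxp2 differed much less: Adarb2 summed to 2702 CPM with Fign and 2353 CPM without, and Sim1 to 437 and 434 CPM.

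**Figure D2:**
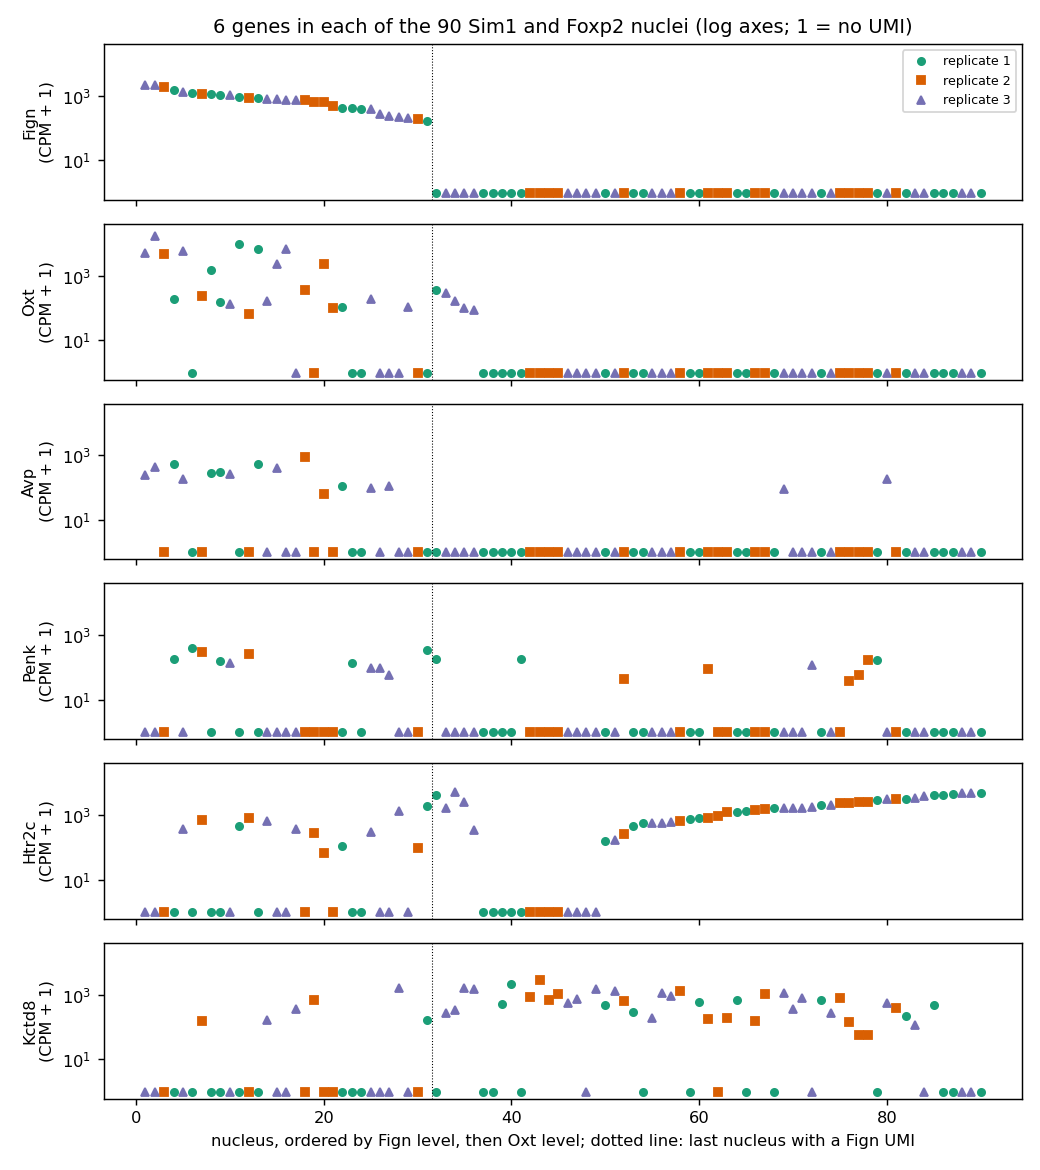
Level (CPM plus 1, log axes) of Fign, Oxt, Avp, Penk, Htr2c and Kctd8 in each of the 90 Sim1 and Foxp2 nuclei, ordered by Fign and then Oxt level, with symbols for the 3 replicates and a dotted line after the 31 nuclei with a Fign UMI. The 10 nuclei with Oxt at 1522 CPM or more lie left of the line, and most nuclei with Htr2c or Kctd8 lie right of it.

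Ranked over 5128 genes with at least 30 UMIs in the 90 nuclei, the genes with the highest ratio toward the Fign nuclei in every library were, after Oxt and Avp, the calcium-dependent secretion factor Cadps2 (498 against 18.4 CPM), Prlr, Zfp804b (1456 against 97.4 CPM), the glypican Gpc5 (1092 against 73.5 CPM) and the GABA-A receptor subunit Gabrg1 (117 against 11 CPM), leaving out names of the form Gm-number or ending in Rik. Toward the nuclei without Fign they were Egfr (0 of 34 UMIs in the Fign nuclei), Il1rapl2 (2 of 84), Sulf1 (1 of 47), the heparan sulfate sulfotransferase Hs3st4 (73.5 against 781 CPM), Dlk1 (3 of 66), Zeb2 (20.0 against 197 CPM) and the guidance ligand Sema3e (3 of 53). Of the 5128 genes, 785 were higher and 830 lower in the Fign nuclei in all 3 libraries, so the same direction in every library was common. Nuclei with and without Fign were present in each library, but how they correspond to known paraventricular cell types was not tested. Npsr1, the neuropeptide S receptor, varied in another way, with UMIs in 9 nuclei only and more than 1000 CPM in 3 of them.

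Outside the factors and peptides, the named genes with the largest changes against all other nuclei included several receptors for peptides, hormones and amines. Cckar, a cholecystokinin receptor, was at 31.7, 28.1 and 9.0 CPM against 0.367, 0.353 and 0.366 CPM (log2 fold change 5.53 ± 0.77, adjusted p = 2.1e-11). Hrh1, a histamine receptor, was at 26.4, 40.5 and 69.0 CPM against 2.76, 1.95 and 1.85 CPM (4.14 ± 0.48, adjusted p = 3.6e-16). Esr2 was at 106, 87.3 and 60 CPM against 3.27, 1.57 and 2.65 CPM (4.79 ± 0.40, adjusted p = 2.5e-31), whereas Esr1, the alpha receptor, was at 26.4, 37.4 and 30 CPM and was not called (0.69, adjusted p = 0.19). Abcc9, the sulfonylurea receptor subunit of ATP-sensitive potassium channels, was at 31.7, 18.7 and 30 CPM against 0.551, 0.220 and 0.499 CPM (5.69 ± 0.71, adjusted p = 3.7e-14). Adarb2, a brain protein of the RNA-editing enzyme family, had the highest level among these genes at 2861, 2258 and 2468 CPM against 177, 78.1 and 115 CPM (4.11 ± 0.13, adjusted p = 1.0e-206).

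The remaining named higher genes were Nkx2-2, Cntnap3, Fign, Plscr4, Bard1, Sulf1 and Corin. Corin, a protease that activates natriuretic peptides, rested on 1 library, with 10.6, 68.6 and 6.00 CPM, and without replicate 2 its log2 fold change fell from 4.21 to 1.98 (adjusted p = 0.50). The named lower genes were led by Atp8b1, Gpc4, Bcl6 and Rspo2, each with 0 UMIs in the 90 nuclei and therefore at least 10.2-fold, 7.19-fold, 6.17-fold and 6.14-fold lower. Lhfp had 1 UMI (44.5-fold lower, counting interval 7.99 to 1760), and Mctp2, Serinc2, Spata16 and Ankrd33b had 1 or 2 each. The named genes given here were all also called against the stricter reference. There Adarb2 stood at 3.02 ± 0.12 and Fign at 3.56 ± 0.17 on the log2 scale.

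**Figure D3:**
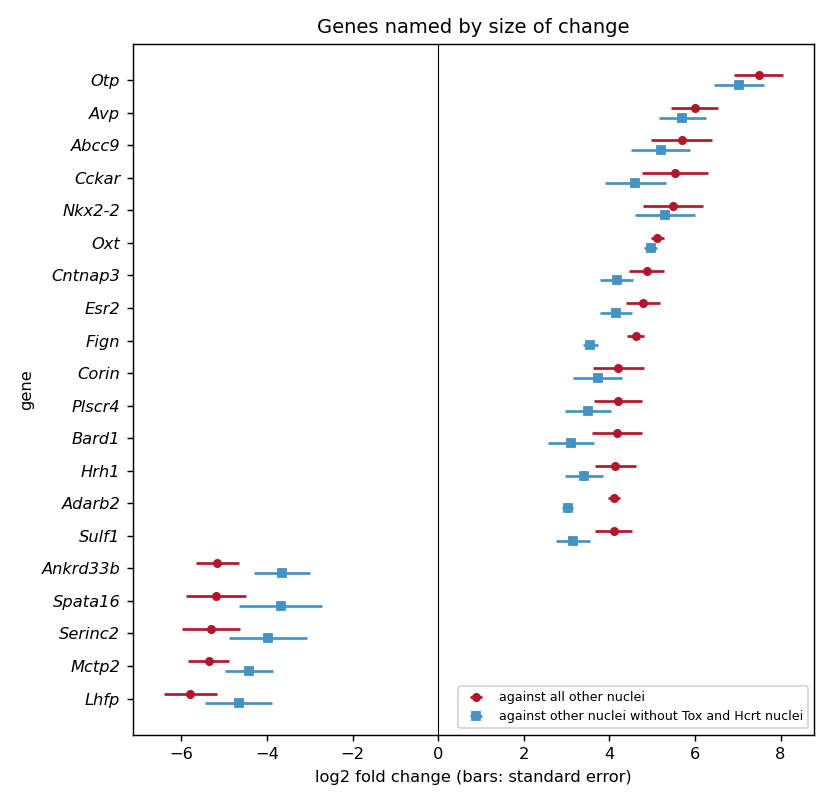
Log2 fold change with standard error of named genes that had at least 1 UMI in the Sim1 and Foxp2 nuclei, against all other nuclei (red circles) and against the stricter reference without Tox and Hcrt nuclei (blue squares). Otp is highest in both, at 7.49 and 7.03, and the changes against the stricter reference are closer to 0 in the genes shown.

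The composition of the reference changed many calls. The named genes kept theirs, but they were picked for the size of their change and so are no yardstick for the lists below. Against all other nuclei 632 genes were higher and 1140 lower, and 259 and 472 of these were also called against the stricter reference. That reference gave 288 higher and 621 lower genes, or 1.69% and 3.65% of 17035 tested. Of 40 listed peptide and hormone receptors 30 were tested, 4 were higher (Cckar, Adcyap1r1, Npy2r and Oprk1) and 3 lower (Rxfp1, Cckbr and Crhr1), and all but Oprk1, Cckbr and Crhr1 also held against the stricter reference. Adcyap1r1, the receptor of the peptide PACAP, was even across libraries at 42.2, 43.7 and 42.0 CPM against 9.44, 8.06 and 7.09 CPM (log2 fold change 2.08 ± 0.37, adjusted p = 5.1e-07), though it missed the threshold in thinned nuclei (adjusted p = 0.16). The relaxin receptor Rxfp1 was at 21.1, 6.24 and 3.0 CPM against 149, 142 and 67.2 CPM (-4.10 ± 0.33, adjusted p = 7.9e-33). Mc4r, the melanocortin receptor known for its role in Sim1 neurons, had 1 UMI in the 90 nuclei and was not called (adjusted p = 0.42). The calls of the sparse receptors rested on few UMIs: Npy2r was not called without replicate 1 (adjusted p = 0.0889), Oprk1 without replicate 2 or 3 (0.153 and 0.319), and Crhr1 without any of replicates 1, 2 and 3 (0.122, 0.336 and 0.102).

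Of 16 nuclear receptors, Esr2 and Rxrg were higher and the glucocorticoid receptor Nr3c1, the mineralocorticoid receptor Nr3c2, the thyroid hormone receptor Thrb and Rarb were lower. Nr3c1 was at 10.6, 24.9 and 12 CPM against 69.8, 78.9 and 84.0 CPM (log2 fold change -2.58 ± 0.30, adjusted p = 6.1e-16), and Thrb at 121, 93.6 and 135 CPM against 557, 589 and 594 CPM (-2.65 ± 0.16, adjusted p = 2.1e-57). The call of Nr3c2 ended against the stricter reference (-0.78), and the others kept theirs. Rxrg was not called without replicate 1 (adjusted p = 0.261) nor Rarb without replicate 2 (0.295), and Nr3c1 missed the threshold in thinned nuclei (0.181).

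The nuclei carried the transcript of a glutamate transporter. Slc17a6, the vesicular glutamate transporter of most subcortical neurons, was at 111, 143 and 105 CPM against 47.8, 32.1 and 40.4 CPM (log2 fold change 1.31 ± 0.19, adjusted p = 3.0e-10), but at 0.28 ± 0.17 (adjusted p = 0.41) against the stricter reference, whose libraries held 86.6, 84.0 and 104 CPM. Slc17a7, the cortical transporter, was lower at 0, 31.2 and 12 CPM against 51.3, 106 and 78.7 CPM (-2.68 ± 0.30, adjusted p = 3.6e-17). Gad1 and Gad2, the enzymes that make GABA, had 2 UMIs each. Nos1, the neuronal nitric oxide synthase, was at 10.6, 24.9 and 9.0 CPM and missed the threshold (1.60, adjusted p = 0.051).

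Ion channel genes were more often lower than higher against all other nuclei, and not all of these calls held against the stricter reference. Both were also so over all genes tested, with 632 higher and 1140 lower calls, of which 259 and 472 held. Of 26 potassium channel genes 3 were higher (Kcnc2, Kcnh8 and Kcnip1) and 9 lower, with a median log2 fold change of -0.41, and 2 and 6 of these held. Of 27 calcium, sodium, HCN and TRPC channel genes 2 were higher and 8 lower, and 0 and 2 of these held. Kcnip1, which modulates Kv4 channels, was at 317, 468 and 357 CPM against 82.0, 63.8 and 60.1 CPM (2.19 ± 0.13, adjusted p = 1.2e-57), and Kcnn2, a calcium-activated potassium channel, at 63.4, 153 and 132 CPM against 409, 542 and 573 CPM (-2.43 ± 0.16, adjusted p = 9.6e-49). Among 17 ionotropic glutamate receptors 2 were higher and 4 lower (0 and 1 held), and among 19 GABA-A and glycine receptor genes 2 were higher and 5 lower (2 and 1 held). Gabrg3, a GABA-A receptor subunit, was at 2291, 1494 and 1644 CPM against 679, 609 and 710 CPM (1.10 ± 0.12), at 0.86 without replicate 1, under the fold threshold, and at 1.69 against the stricter reference. Of 21 monoamine and acetylcholine receptors, 1 was higher and 7 lower, with a median log2 fold change of -1.55. The higher gene was Htr2c, at 1415, 1007 and 1140 CPM against 277, 150 and 222 CPM (2.16 ± 0.12, adjusted p = 1.3e-67), which is the receptor concentrated in the nuclei without Fign. The higher call and 4 of the lower ones held against the stricter reference, and those of Htr1f (-0.81), Htr4 (-0.80) and Adrb1 (-0.35) ended there. Htr4 also was not called without replicate 3 (adjusted p = 0.0636), nor Adra1b without replicate 1, 2 or 3 (0.119, 0.0939 and 0.261). The lower genes also included the muscarinic receptor Chrm3 and the adrenergic receptor Adra1a, which was at 0, 6.24 and 21.0 CPM against 70.0, 74.8 and 68.3 CPM (-3.08 ± 0.34, adjusted p = 2.3e-17).

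Of 26 axon guidance receptors 4 were higher and 7 lower, and all 4 higher calls (Unc5d, Robo2, Plxnc1 and Cntn5) and 3 of the lower ones held against the stricter reference. The netrin receptor Unc5d was at 913, 830 and 867 CPM against 213, 99.7 and 136 CPM (log2 fold change 2.30 ± 0.12, adjusted p = 2.1e-74), and the semaphorin receptor Nrp1 at 37.0, 15.6 and 21.0 CPM against 196, 195 and 213 CPM (-3.49 ± 0.24, adjusted p = 6.5e-45). The lower calls of Plxna2 and Dscaml1 did not hold, and their direction turned to 0.05 and 0.45, and Plxna2 also fell short of the fold threshold without replicate 2 (-0.95) and without replicate 3 (-0.85). Among 14 classical cadherins 2 were higher (Cdh4 and Cdh12) and 5 lower. Both higher calls and those of Cdh8 and Cdh20 held against the stricter reference, and the lower calls of Cdh6 (-0.98), Cdh11 (-0.89) and Cdh24 (-0.90) ended there. Cdh24 also was not called without replicate 2 or 3 (adjusted p = 0.165 and 0.38). Cdh20 was at 21.1, 9.36 and 12 CPM against 174, 125 and 163 CPM (-3.86 ± 0.28, adjusted p = 6.9e-40). Of 25 imprinted genes tested 4 were higher (Nnat, Dlk1, Grb10 and Mest) and none lower, and Nnat and Dlk1 held against the stricter reference, while Mest fell short of the fold threshold without replicate 2 (0.88). Nnat, a neuronal membrane protein, was at 327, 302 and 393 CPM against 53.0, 51.7 and 41.4 CPM (2.51 ± 0.14, adjusted p = 9.4e-68).

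**Figure D4:**
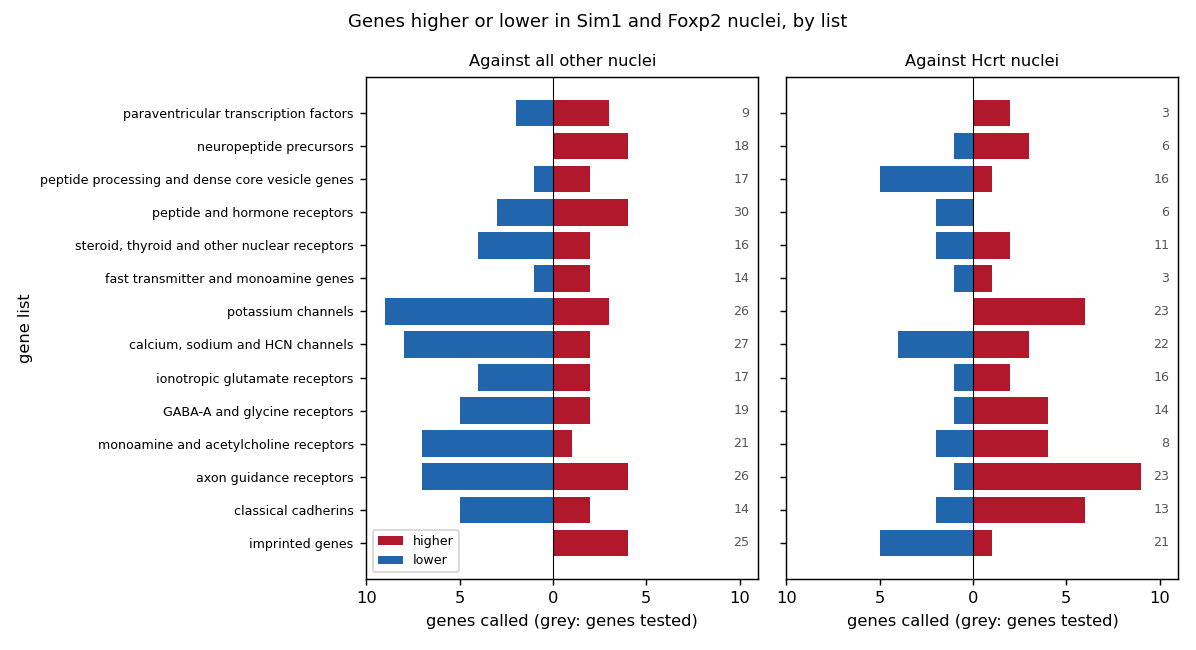
Number of genes called higher (red) or lower (blue) in Sim1 and Foxp2 nuclei for 14 gene lists, against all other nuclei (left) and against Hcrt nuclei (right), with the number tested in grey; the neuropeptide bars include Oxt and Penk, which named the group. Potassium channels have 9 lower and 3 higher calls on the left and 6 higher and 0 lower on the right.

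The comparison with the Hcrt nuclei sets these nuclei beside a group chosen by Hcrt level alone, of which not all held a UMI of Rfx4, Ros1 or Lhx9. Its 8 corticospinal markers summed to 105 to 303 CPM by library, against 10.6 to 68.6 CPM in the Sim1 and Foxp2 nuclei. A UMI of Hcrt was also found in 9 of 31, 21 of 24 and 8 of 35 Sim1 and Foxp2 nuclei of replicates 1, 2 and 3. The differences below are therefore from a mixed reference and not from orexin neurons alone. Of 6742 genes tested, 5.84% were called higher and 6.24% lower (12.1% in all) in the Sim1 and Foxp2 nuclei, with a median log2 fold change of -0.03. Otp had 0 UMIs in the 140 Hcrt nuclei and was at least 17.3-fold higher in the Sim1 and Foxp2 nuclei (adjusted p = 0.00015), and Pou3f2 was at 47.5, 49.9 and 57.0 CPM against 14.0, 3.91 and 0 CPM (log2 fold change 3.04 ± 0.63, adjusted p = 0.0021). Avp had 3 UMIs in the Hcrt nuclei (15.1-fold, counting interval 4.79 to 76.3). Oxt was at 115, 43.0 and 11 CPM in the Hcrt nuclei, which is above the level in all other nuclei for replicates 1 and 2 and below it for replicate 3. In replicate 1, 24 of the 33 Oxt UMIs came from 1 nucleus, whose Hcrt level of 1031 CPM was just over the limit and whose Foxp2 level was 1547 CPM.

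The highest-ranked genes on the Sim1 and Foxp2 side were Adarb2, at 42.0, 15.6 and 11 CPM in the Hcrt nuclei (log2 fold change 6.82 ± 0.32, adjusted p = 3.0e-10), and Reln, which encodes the secreted glycoprotein reelin, at 998, 1079 and 861 CPM against 49.0, 9.78 and 0 CPM (5.73 ± 0.39, adjusted p = 1.8e-08). Trhde, the enzyme that degrades thyrotropin-releasing hormone, was at 412, 515 and 459 CPM against 10.5, 11.7 and 0 CPM (5.70 ± 0.36, adjusted p = 6.0e-09), and Trhr, a receptor of the same hormone, had 1 UMI in the Sim1 and Foxp2 nuclei and 103 in the Hcrt nuclei (88.8-fold lower, counting interval 15.6 to 3542). Kctd8 (5.07), Fign (4.93), Erbb4 (4.71), Dgkb (4.34) and Cdh12 (4.39) were also higher on the log2 scale. Hrh1 had 1 UMI in the Hcrt nuclei (47.5-fold higher, counting interval 8.07 to 1923) and Prlr had 3 (23.2-fold higher, 7.57 to 116), and Rgs8 had 0, which puts it at least 12.9-fold higher. Kcp and Sntg2, the other named higher genes, had 1 UMI each in the Hcrt nuclei, and Penk had 2 UMIs there against 30 in the Sim1 and Foxp2 nuclei.

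On the Hcrt side, Ros1, a receptor tyrosine kinase, had 0 UMIs in the 90 nuclei and was at least 39.2-fold lower. The transcription factor Rfx4 had 2 UMIs against 609 (263-fold lower, counting interval 72.4 to 2173), and Lypd6, a modulator of nicotinic receptors, had 1 against 165. Sox1ot, Tmbim7, Fhad1 and Eya1 had 0 UMIs and were at least 10.3-fold lower, and the imprinted zinc finger gene Plagl1 had 2 against 236. Hist1h2bb was the least even of them in the Hcrt nuclei, with 630, 23.5 and 66.3 CPM by library.

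**Figure D5:**
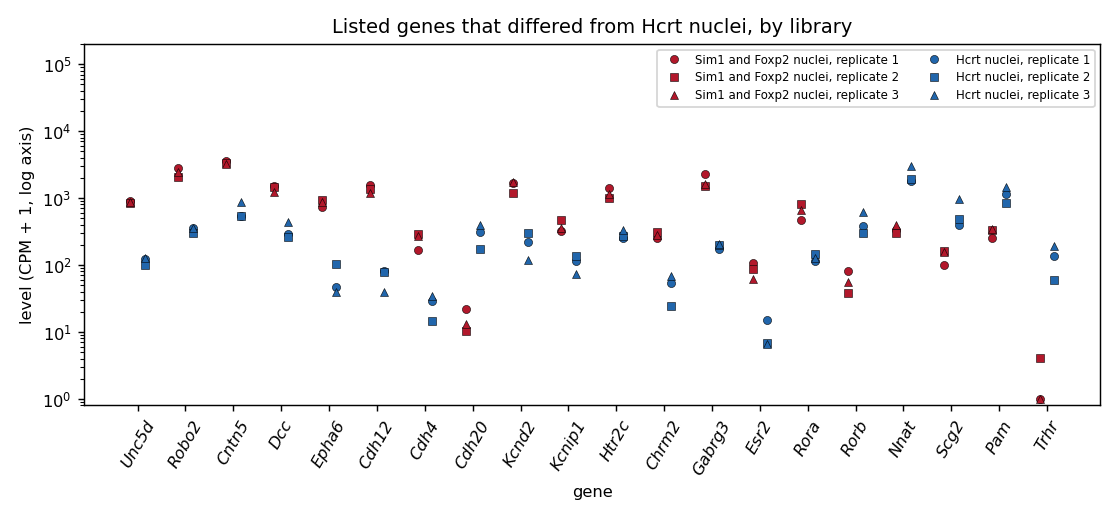
Level (CPM plus 1, log axis) of 20 listed genes called between Sim1 and Foxp2 nuclei (red) and Hcrt nuclei (blue), with symbols for replicates 1, 2 and 3; the genes were picked for display after their values were seen. Unc5d, Robo2, Cntn5, Epha6 and Cdh12 are higher in the red points, and Cdh20, Rorb, Nnat, Scg2, Pam and Trhr are higher in the blue points, with no overlap between libraries.

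Of 23 axon guidance receptors 9 were higher in the Sim1 and Foxp2 nuclei and 1, Epha3, was lower. The ephrin receptor Epha6 was at 739, 923 and 882 CPM against 45.5, 102 and 38.6 CPM (log2 fold change 3.74 ± 0.27, adjusted p = 2.3e-08), and the netrin receptor Dcc at 1489, 1478 and 1242 CPM against 290, 260 and 436 CPM (2.18 ± 0.23, adjusted p = 2.1e-06). Of 13 cadherins 6 were higher and 2 lower, though Cdh6 was not called lower without replicate 2 (adjusted p = 0.174) or replicate 3 (0.0567), and Cdh20 was again low, at 304, 174 and 392 CPM in the Hcrt nuclei (-4.35 ± 0.34, adjusted p = 4.5e-08). Of 23 potassium channel genes 6 were higher and 0 lower, among them Kcnd2, a Kv4 channel subunit, at 1695, 1179 and 1722 CPM against 217, 301 and 116 CPM (2.86 ± 0.28, adjusted p = 9.0e-07).

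Of 16 genes for peptide processing and dense core vesicles, 5 were lower than in the Hcrt nuclei and 1, Cadps2, was higher. Scg2 was at 392, 493 and 955 CPM in the Hcrt nuclei (log2 fold change -2.04 ± 0.24, adjusted p = 6.0e-06), so it was higher in the Sim1 and Foxp2 nuclei than in all other nuclei and lower than in the Hcrt nuclei. Pam, which amidates peptides, was at 253, 331 and 345 CPM against 1137, 847 and 1480 CPM (-1.82 ± 0.22, adjusted p = 8.3e-06), and Pcsk1, Vgf and Chga were lower as well. Chga was not called without replicate 1 (adjusted p = 0.182) or against the 79 Hcrt nuclei with a UMI of Rfx4, Ros1 or Lhx9 (0.37). Of 21 imprinted genes tested 5 were lower and 1 higher, with Nnat at 1819, 1921 and 3031 CPM in the Hcrt nuclei (-2.66 ± 0.22, adjusted p = 1.2e-07). Of 11 nuclear receptors Esr2 and Rora were higher and Nr3c1 and Rorb lower, and Rorb was at 79.2, 37.4 and 54.0 CPM against 385, 301 and 613 CPM (-2.92 ± 0.27, adjusted p = 4.1e-07). Of 8 monoamine and acetylcholine receptors 4 were higher (Htr2c, Htr4, Htr7 and Chrm2) and 2 lower (Htr1f and Adra1b). With DESeq2 the calls of Htr4, Htr7, Htr1f and Adra1b ended (adjusted p = 0.0935, 0.141, 0.0591 and 0.248), and with at least 500 genes those of Htr4, Htr7 and Htr1f. That minimum changed the reference itself. The Hcrt nuclei rose from 61 to 2215 in replicate 2, against 61 to 65 in replicate 1 and 18 to 27 in replicate 3. Without replicate 3 Adra1b was not called (0.0791), and Htr1f fell short of the fold threshold without replicate 1 or without replicate 3 (-0.97). Chrm2, a muscarinic receptor, was at 253, 315 and 276 CPM against 52.5, 23.5 and 66.3 CPM (2.78 ± 0.30, adjusted p = 2.6e-06).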

How the data were processed

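The deposited matrices are UMI counts. The software was Cell Ranger 6.1.1 per the file headers, and 7.0.1 with build mm10 per the submitters' processing notes, and which version was used is not settled. Intron counting, which would raise long genes, strand use and barcode selection are not stated in what was used here.

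The rule, gene lists and named-gene rule were chosen with earlier results of these data known. Named genes were the 15 with the largest positive and the 10 with the largest negative log2 fold change among called genes that had the same direction in every library and at least 20 CPM in the higher group, without the rule genes and unnamed transcripts. Genes of the lists were named as well, and some genes that met these rules are not reported here. UMIs were summed per library and group, and CPM are UMIs in each 1000000 of that sum. Sums were fitted with edgeR 4.0.16 (R 4.3.3) quasi-likelihood tests, TMM, filterByExpr and the library as a block, since both sums of a library come from the same sample, leaving 2 residual degrees of freedom. Each group sum had at least 5 nuclei per library. The very small p-values rest on the spread that edgeR pools over genes. Standard errors were obtained by dividing each log2 fold change by the root of its F statistic. Genes at 0 UMIs are given as a bound against 3 UMIs over the group, and those at 1 to 3 as a pooled ratio with an exact 95% interval. The fit was tested on simulated data. Scrublet in Scanpy 1.11.5, with 6% doublets expected, marked the doublets. The alternatives were DESeq2 1.42.0, no filter on low counts, no block, each library left out, doublets removed, a minimum of 500 genes, thinning to 2500 UMIs, a Foxp2 minimum of 2 UMIs and the stricter reference. An Hcrt reference of the 79 nuclei with a UMI of Rfx4, Ros1 or Lhx9 was added after seeing the data.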

Additional observations from a re-analysis of the deposited data

How the results depend on the processing

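The share of Sim1 and Foxp2 nuclei moved to 0.679% with a minimum of 500 genes, where replicate 2 alone had 7071 nuclei within the limits. Thinning to 2500 UMIs moved the shares of nuclei with a UMI of Oxt, Avp and Penk to 14.4%, 7.8% and 6.7% from 28.9%, 17.8% and 22.2%. Against all other nuclei the 632 higher genes became 288 against the stricter reference and 166 in thinned nuclei, and 383 to 563 with a library left out, lowest without replicate 3 and at 420 without replicate 2. The 1140 lower genes became 699 with DESeq2, 621 against the stricter reference and 597 in thinned nuclei, and 845 to 1076 with a library left out. The higher share of all calls, 35.7%, was 46.9% with DESeq2 and 21.8% in thinned nuclei. Without the replicate block the counts were 588 and 953, and 336 and 317 against the Hcrt nuclei. There the 394 higher genes became 238 with DESeq2 and 188 in thinned nuclei (327 to 366 with a library left out), and the 421 lower genes 172, 186 and, with a minimum of 500 genes, 271 (283 to 374). Against the 79 Hcrt nuclei with a UMI of Rfx4, Ros1 or Lhx9 they were 412 and 334. The minimum of 500 genes gave an Hcrt reference with 2215 nuclei in replicate 2. Directions reversed for Grin2d in thinned nuclei (-0.31) and, against the stricter reference, for Gabra4 (0.18), Plxna2 (0.05), Dscaml1 (0.45) and Mbp (0.02). The cause was not tested. Rspo2 missed the threshold in thinned nuclei (adjusted p = 0.082), and so did Corin (adjusted p = 0.12). Comparisons of Sim1 nuclei low in Foxp2 (4, 0 and 4 by library) and of Penk-high nuclei, with all their alternatives, were not run because libraries lacked nuclei. With 90 nuclei, a gene under 3.56 CPM was below the floor of 3 UMIs.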
